A study of Arabidopsis thaliana with 14 samples.

Results

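The genes described here are 6 nuclear genes of Arabidopsis thaliana for proteins that work in the chloroplast. They were chosen by name from the pathway, with earlier results of these data known: PSAN (AT5G64040) and PSAE-1 (AT4G28750) of photosystem I, LHCB4.1 (AT5G01530) of light harvesting, RCA (AT2G39730) and PRK (AT1G32060) of carbon fixation, and PORB (AT4G27440) of chlorophyll synthesis. Each is read by 1 probe set of the ATH1 array, and they are 6 of the 13356 genes that a probe set annotated with a single gene names.

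The study measured transcripts in parts of the developing seed at the bending-cotyledon stage, when the cotyledons were 100 to 140 µm long. There were 14 arrays in 7 groups of 2 biological replicates: whole seeds (serial sections), chalazal endosperm, embryo proper, micropylar endosperm, peripheral endosperm, chalazal seed coat and general seed coat. All groups were unmutated Ws-0 plants 38 to 46 days old, kept at 20 °C in continuous light, and no treatment or transgene was given. Compartments were cut by laser from fixed, paraffin-embedded sections, and the RNA amplified was 2 to 5 ng for the micropylar endosperm and 5 to 6 ng for the other groups. The labels do not say how many plants or seeds went into a replicate, so the p-values cover the spread between these samples.

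Photosystem I takes light energy to drive electrons from plastocyanin to ferredoxin, while antenna proteins such as those of the LHCB4 family pass light energy to photosystem II. The Calvin cycle then fixes carbon dioxide with the ATP and reducing power made. Most of these proteins are encoded in the nucleus and imported into the plastid, whereas the plastid genome encodes the reaction-centre cores and the large subunit of rubisco. Arabidopsis embryos turn green in mid development and can photosynthesise before the seed dries.

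The 14 arrays had the same scaling, with a 2% trimmed mean of 500 intensity units, and their medians over all probe sets ran from 99 to 188. Replicates correlated at r = 0.8672 (peripheral endosperm) to 0.9671 (embryo proper) over the 14765 probe sets tested. Embryo markers (4 of 9 listed had a probe set) summed to 7597 and 7342 in the embryo proper and to between 101 and 1048 in the other compartments. Of the 4, PHV averaged 552 ± 15.1 units in the embryo proper, below its 822 ± 49.1 in the peripheral endosperm, and on micropylar endosperm replicate 3, the array at 1048, TWS1 was at 615, against 24.9 on replicate 1. Seed coat markers (7 of 12) summed to 46462 to 56082 in both seed coat groups and to between 786 and 4714 elsewhere among the compartments. ARA12 alone was at 31182 and 34456 of the general seed coat sums of 46462 and 52180. SWEET10 and PER36 averaged 23.4 and 144 units there, against 16152 and 4962 in the chalazal seed coat. On the general seed coat arrays 1 and 2 of the 7 were below the array median. Endosperm markers (5 of 9) summed to 289 and 107 in the chalazal endosperm, to 9868 and 4573 in the micropylar endosperm and to 26309 and 26952 in the peripheral endosperm. In the chalazal endosperm 4 of 5 and 5 of 5 of these endosperm markers were below the array median, so this list, which holds no marker specific to the chalazal region, did not show its label. IKU2, MPC and AGL62 were below the median on every micropylar and peripheral endosperm array too, so the difference rests on SWEET11 and KRS. The 3′ to 5′ signal ratio of the GAPDH control, a sign of RNA length, ran from 2.165 (chalazal endosperm replicate 2) to 7.495 (micropylar endosperm replicate 3) and was 5.249 and 5.129 in the general seed coat; its part in the results was not tested. Each group is a bulk sample, in which fewer cells of a type and less RNA per cell cannot be told apart.

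**Figure D1:**
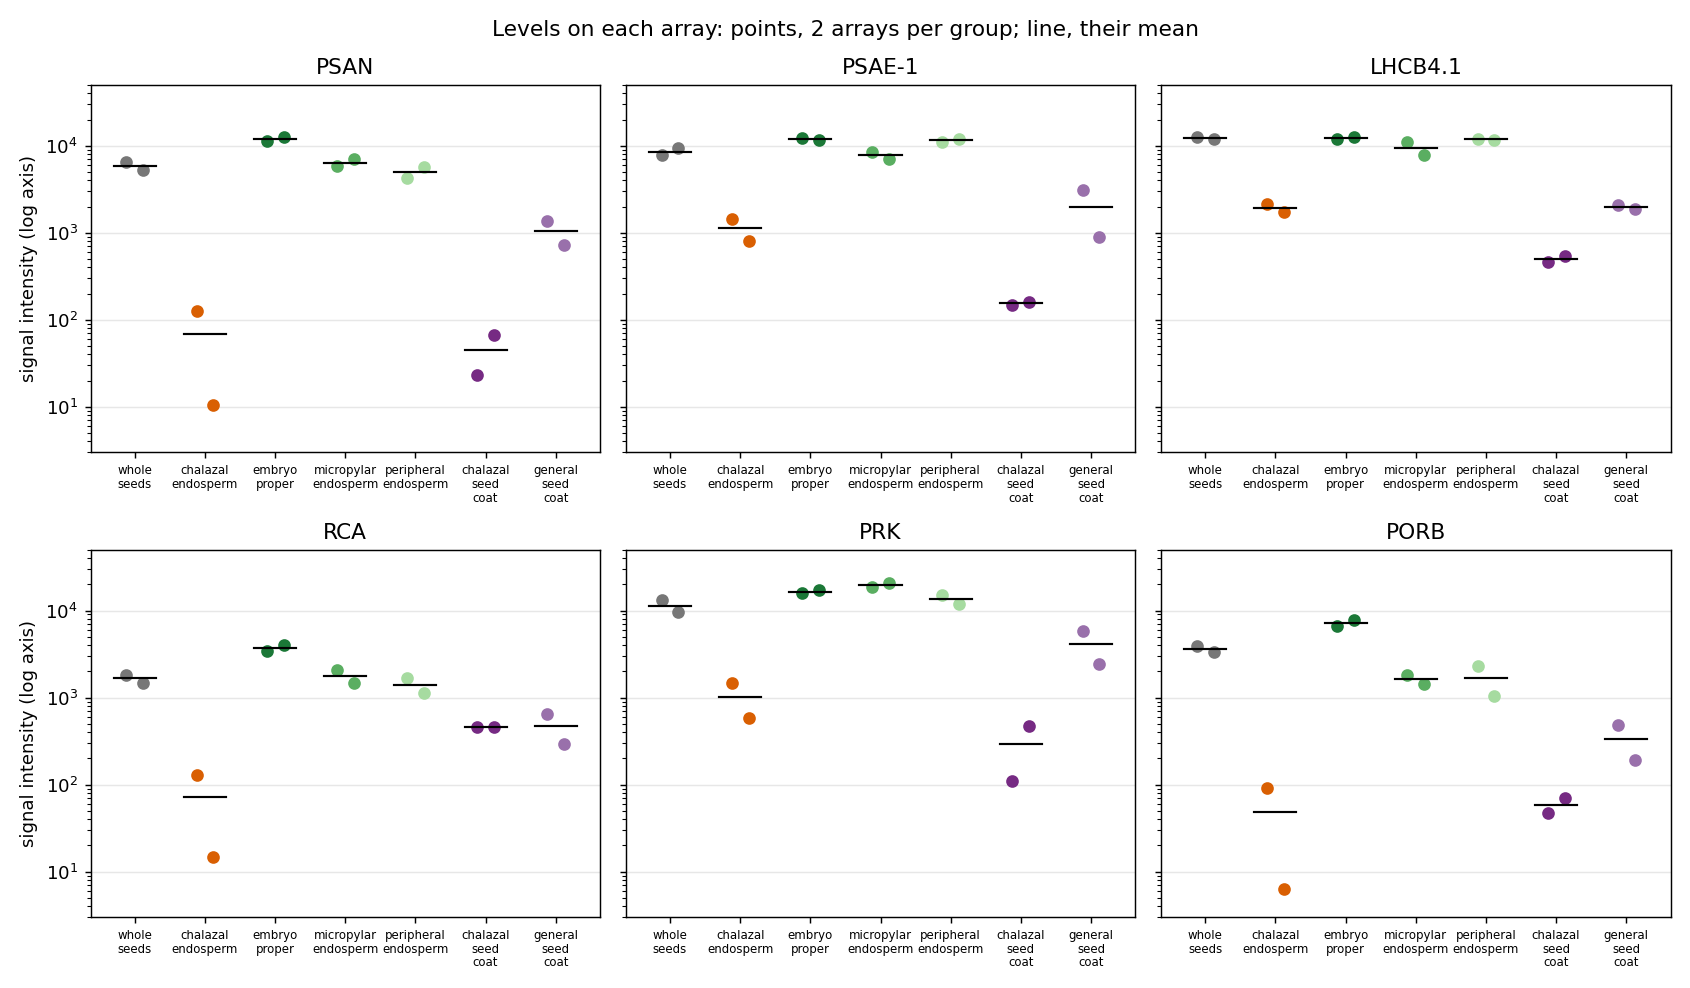
Signal intensity (log axis) of the 6 genes on each of the 14 arrays; points are arrays, lines are means of the 2 arrays of a group, and panels are genes, whose levels are not comparable with one another. All 6 genes are high in the embryo proper and in the micropylar and peripheral endosperm and lower in the chalazal endosperm and both seed coat groups.

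Transcripts of all 6 genes were abundant in the embryo and in 2 of the 3 endosperm regions and had their lowest means at the chalazal end of the seed. The 3 compartments with the highest means were the embryo proper, the micropylar endosperm and the peripheral endosperm for every gene, and the general seed coat came next for every gene. The chalazal endosperm and the chalazal seed coat held the 2 lowest places. Some places were close: RCA averaged 466 units in the general and 455 in the chalazal seed coat. LHCB4.1 averaged 1992 in the general seed coat and 1931 in the chalazal endosperm, and neither step passed the test. Set against the gene's own highest compartment mean, the levels were 0.568 to 15.8% in the chalazal endosperm, 83.3 to 100% in the embryo proper, 22.6 to 100% in the micropylar endosperm, 23.2 to 97.2% in the peripheral endosperm, 0.373 to 12.2% in the chalazal seed coat and 4.7 to 21.1% in the general seed coat. Where a gene was below the array median (PSAN and PORB in both chalazal compartments, RCA in the chalazal endosperm) its percent shows only that the signal was dim, since no detection calls were used. In the chalazal seed coat PRK (percentiles 43.6 and 71.5) and PSAE-1 (49.2 and 50.8) were below the median on replicate 1, which limits their percents there too. The embryo proper was highest for 5 genes, and the micropylar endosperm for PRK. All 6 genes passed the filter on dim probe sets, which asks for both arrays of any group above the array median. LHCB4.1 met it in 7 of 7 groups, PSAE-1, RCA and PRK in 6, and PSAN and PORB in 5.

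PSAN, the photosystem I subunit on the lumen side that interacts with plastocyanin, had 127 and 10.4 intensity units in the chalazal endosperm, 11455 and 12680 in the embryo proper, 5840 and 6976 in the micropylar endosperm, 4240 and 5691 in the peripheral endosperm, 23.4 and 66.5 in the chalazal seed coat and 1349 and 723 in the general seed coat. The chalazal endosperm and chalazal seed coat arrays overlapped, and all 4 were below every other array. In rank on their arrays these 4 values stood at percentiles 48.1 and 13.7 (chalazal endosperm) and 18.8 and 33 (chalazal seed coat), so PSAN was below the median probe set there. The highest compartment mean was 12067 ± 867 in the embryo proper and the lowest 45 ± 30.5 in the chalazal seed coat (SD, n = 2 each). Going down the order of means, the embryo proper and the micropylar endosperm did not differ beyond their spread (log2 difference 0.91, limma adjusted p = 0.22), nor did the micropylar and peripheral endosperm (0.38, 0.697). The steps to the general seed coat and from there to the chalazal endosperm passed the test, and the last step, chalazal endosperm over chalazal seed coat, did not (0.15, 95% interval -0.87 to 1.17).

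PSAE-1, the stromal photosystem I subunit near the ferredoxin docking site, had 1456 and 808 units in the chalazal endosperm, 12232 and 11782 in the embryo proper, 8467 and 7061 in the micropylar endosperm, 11027 and 12088 in the peripheral endosperm, 148 and 162 in the chalazal seed coat and 3117 and 894 in the general seed coat. The chalazal seed coat arrays were lowest, and the chalazal endosperm and general seed coat arrays overlapped. Embryo proper and peripheral endosperm arrays overlapped as well, with means of 12007 ± 318 and 11558 ± 750 units (SD, n = 2 each). The chalazal endosperm was 2.58 log2 units above the chalazal seed coat (SE 0.41, limma adjusted p = 0.000124). Against the general seed coat the chalazal endosperm value of PSAE-1 was -0.61 (adjusted p = 0.262). That last value became -1.49 (adjusted p = 0.00416) without general seed coat replicate 2, so 1 array decides it.

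LHCB4.1, a minor antenna protein (CP29) of photosystem II, had 2115 and 1746 units in the chalazal endosperm, 11820 and 12564 in the embryo proper, 11181 and 7745 in the micropylar endosperm, 11940 and 11771 in the peripheral endosperm, 459 and 543 in the chalazal seed coat and 2111 and 1874 in the general seed coat. The chalazal seed coat arrays were lowest, and the chalazal endosperm and general seed coat arrays overlapped at an intermediate level. Their difference was -0.05 log2 units (95% interval -0.56 to 0.47). LHCB4.1 had the narrowest range of the 6, its highest compartment mean being 24.3 times its lowest. Its whole seed mean, 12274 ± 322, was 101% of its highest compartment mean, against 44.5 to 71.5% for the other 5 genes.

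RCA, rubisco activase, which removes inhibitory sugar phosphates from rubisco, had 128 and 14.8 units in the chalazal endosperm, 3428 and 4012 in the embryo proper, 2097 and 1475 in the micropylar endosperm, 1698 and 1123 in the peripheral endosperm, 456 and 453 in the chalazal seed coat and 643 and 290 in the general seed coat. The chalazal endosperm arrays were lowest, and both chalazal seed coat arrays fell between those of the general seed coat. RCA was the only one of the 6 without a called difference between chalazal and general seed coat: 0.06 log2 units (95% interval -0.98 to 1.11, adjusted p = 0.955). It was also the only one called lower in chalazal endosperm than in chalazal seed coat (-2.49, SE 0.5, adjusted p = 0.00087).

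PRK, phosphoribulokinase, which regenerates the sugar bisphosphate that rubisco uses, had 1459 and 578 units in the chalazal endosperm, 15718 and 17145 in the embryo proper, 18572 and 20865 in the micropylar endosperm, 15031 and 11775 in the peripheral endosperm, 110 and 472 in the chalazal seed coat and 5864 and 2448 in the general seed coat. The micropylar endosperm arrays were the 2 highest of all, without overlap, but the difference from the embryo proper did not pass the test (embryo proper minus micropylar endosperm -0.26, 95% interval -1.32 to 0.79). PRK had the highest general seed coat share of the 6, at 21.1% of its highest mean. The chalazal endosperm lay above the chalazal seed coat by 1.83 log2 units (SE 0.5, limma adjusted p = 0.00849). Without chalazal endosperm replicate 1 that value was 1.19 (adjusted p = 0.14), and without chalazal seed coat replicate 1 it was 0.92 (0.187).

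PORB, a protochlorophyllide oxidoreductase that carries out the light-dependent step of chlorophyll synthesis, had 91.2 and 6.24 units in the chalazal endosperm, 6669 and 7683 in the embryo proper, 1813 and 1435 in the micropylar endosperm, 2281 and 1048 in the peripheral endosperm, 47.2 and 69.8 in the chalazal seed coat and 481 and 193 in the general seed coat. Both embryo arrays stood well above all other compartments, and the 2 chalazal groups overlapped at the bottom. PORB was the gene most skewed to the embryo: the micropylar and peripheral endosperm reached 22.6 and 23.2% of the embryo mean. The embryo proper was higher by 2.13 log2 units than the micropylar endosperm (SE 0.52, limma adjusted p = 0.00889) and by 2.19 than the peripheral endosperm (SE 0.52, adjusted p = 0.00617). The call against the micropylar endosperm was lost without embryo proper replicate 1 (0.0572), embryo proper replicate 2 (0.0814) or micropylar endosperm replicate 3 (0.0685), and that against the peripheral endosperm without embryo proper replicate 2 (0.0617) or peripheral endosperm replicate 2 (0.0514).

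**Figure D2:**
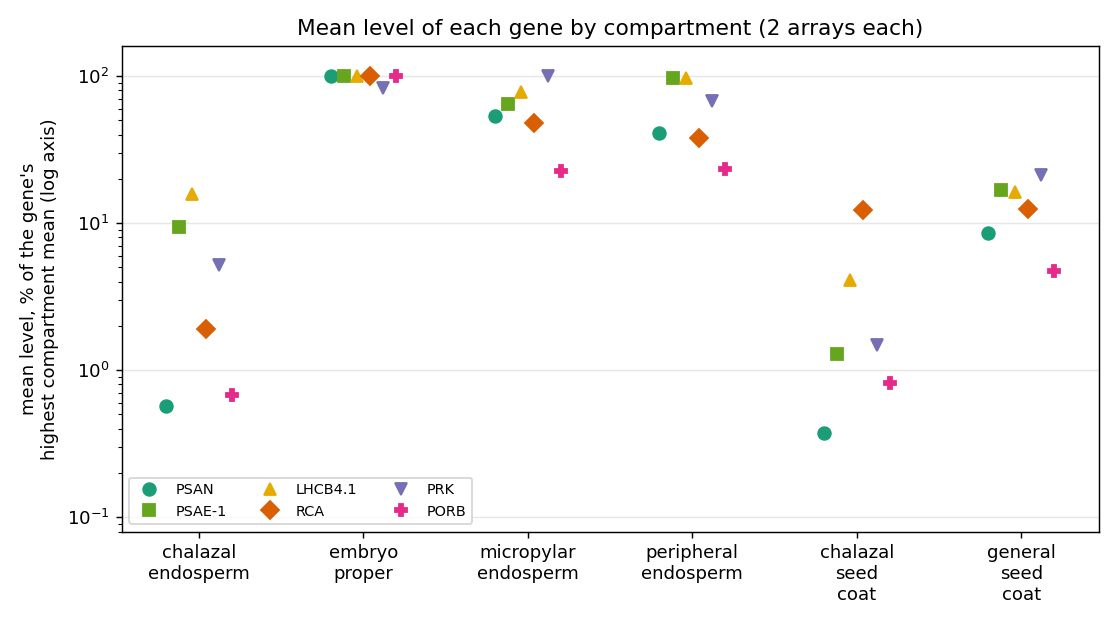
Mean level of each gene in the 6 compartments as a percent of that gene's highest compartment mean (log axis; each point is the mean of 2 arrays). The embryo proper column lies between 83.3 and 100%, PORB stands below the others in the micropylar and peripheral endosperm, and RCA stands above the others in the chalazal seed coat.

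Within the endosperm, the chalazal region was lower than the peripheral and micropylar regions for all 6 genes, and no difference between those 2 regions was called. A call here means a Benjamini-Hochberg adjusted p under 0.05 in limma and a difference of at least 1 on the scale of log2(intensity + 32), which understates the change of dim genes. Chalazal minus peripheral endosperm was -5.91 for PSAN (SE 0.49, adjusted p = 9.84e-08), -3.37 for PSAE-1 (SE 0.41, 8.06e-06) and -2.6 for LHCB4.1 (SE 0.24, 4.52e-07). It was -4.03 for RCA (SE 0.5, 8.61e-06), -3.81 for PRK (SE 0.5, 1.66e-05) and -4.53 for PORB (SE 0.52, 4.47e-06). That is 6 of 6 lower, where 17% of all probe sets tested were called lower, and a median of -3.92 beside 0.11 over all probe sets. Against the micropylar endosperm 6 of 6 were lower too (19.3% of all probe sets), by -2.26 (LHCB4.1) to -6.29 (PSAN). These comparisons share the chalazal endosperm arrays.

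Micropylar minus peripheral endosperm ran from -0.58 (PSAE-1) to 0.56 (PRK) and none of the 6 was called by limma, the lowest adjusted p being 0.422; none had an unadjusted p under 0.05 (lowest 0.172). Of all probe sets 6.31% were called in either direction. The intervals still allow sizeable differences, such as -0.65 to 1.4 for PSAN and -0.49 to 1.62 for PRK. The micropylar endosperm was amplified from less RNA than the other groups, so RNA amount and compartment cannot be told apart in its comparisons, and its GAPDH ratios were 3.857 and 7.495.

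PSAN, RCA and PORB were below the array median on both chalazal endosperm arrays, RCA at percentiles 48.3 and 17.6 and PORB at 40.1 and 8.28. The other 3 genes were lower than elsewhere in the endosperm but still above the median: LHCB4.1 stood at percentiles 92.4 and 90.6, PSAE-1 at 89 and 81.5 and PRK at 89 and 76.6. Replicate 1 was above replicate 2 for 6 of 6 genes, by 0.27 to 1.9 log2 units with a median of 1.49, while 51.6% of all probe sets tested were higher on replicate 1. The GAPDH ratio was 3.974 on replicate 1 and 2.165 on replicate 2. All 6 genes were called lower than in the peripheral endosperm, the micropylar endosperm and the embryo proper without either array.

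The embryo proper was compared with each other compartment. The chalazal endosperm was lower than the embryo for 6 of 6 genes: chalazal endosperm minus embryo proper was -2.64 (LHCB4.1) to -7.2 (PSAN), adjusted p = 5.99e-06 or lower, where 20.4% of all probe sets were called lower. Against the micropylar endosperm 1 of 6 was called higher in the embryo, PORB, beside 8.18% of all probe sets. Against the peripheral endosperm 2 of 6 were called higher, PORB and RCA, beside 12.9%. RCA differed by 1.4 (SE 0.5, adjusted p = 0.0497), a call lost in 14 of 24 alternatives. PSAN, at 1.29 (95% interval 0.27 to 2.31, adjusted p = 0.0645), missed it. PSAE-1 and LHCB4.1 differed by 0.06 and 0.04, with intervals of -0.81 to 0.93 and -0.48 to 0.56.

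The seed coat compartments were lower than the embryo for all 6 genes. Embryo proper minus general seed coat was 2.1 (PRK) to 4.4 (PORB), with 6 of 6 called higher beside 19.4% of all probe sets. The PRK call was lost without general seed coat replicate 2 (1.48, limma adjusted p = 0.0658). Embryo proper minus chalazal seed coat was 2.94 (RCA) to 7.35 (PSAN), again 6 of 6, beside 19.7%. The peripheral endosperm was above the general seed coat in 6 of 6 (14.4% of all probe sets) by 1.6 (RCA) to 2.76 (PSAE-1), and above the chalazal seed coat in 6 of 6 (15.2%) by 1.54 (RCA) to 6.06 (PSAN). The RCA call against the chalazal seed coat was lost with log2(intensity + 1) and without peripheral endosperm replicate 1 or either chalazal seed coat array (adjusted p = 0.0816 to 0.129). The micropylar endosperm was above the general seed coat in 6 of 6 (14.5%) by 1.94 to 2.65, and above the chalazal seed coat in 6 of 6 (15.3%) by 1.88 to 6.44. Against the general seed coat 4 of 6 were left with log2(intensity + 1) or without general seed coat replicate 2, since RCA and PORB were lost, and RCA was also lost without micropylar endosperm replicate 1. Against the chalazal seed coat 5 of 6 were left with log2(intensity + 1) or without micropylar endosperm replicate 1, since RCA was lost. Without peripheral endosperm replicate 1, or without general seed coat replicate 2, the count of peripheral endosperm over general seed coat was 3 of 6, since RCA, PRK and PORB no longer passed.

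General seed coat values rested on unlike arrays. Replicate 1 exceeded replicate 2 for 6 of 6 genes, by 0.17 to 1.77 log2 units, with 50.9% of all probe sets higher on replicate 1. The embryo markers were at 101 and 121 on these 2 arrays, with 4 of 4 below the array median, and the endosperm markers at 1574 and 1351.

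In the seed coat the chalazal region was lower than the general seed coat for 5 of 6 genes, beside 8.17% of all probe sets. The differences were -3.79 for PSAN (SE 0.49, limma adjusted p = 3.79e-05), -3.19 for PSAE-1 (SE 0.41, 4.13e-05), -1.93 for LHCB4.1 (SE 0.24, 3.57e-05) and -3.84 for PRK (SE 0.5, 4.32e-05). PORB was lower by less, -1.92 (SE 0.52, 0.0166), a call lost with log2(intensity + 1) (adjusted p = 0.0842) and with only the arrays compared (0.0601). It was also lost without chalazal seed coat replicate 1 (difference -1.74) or general seed coat replicate 1 (-1.33). RCA showed no such decrease, at 0.06. PSAN and PORB were below the array median on both chalazal seed coat arrays, and PSAE-1 and PRK on replicate 1. Their differences end at a dim signal on those arrays.

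The chalazal decrease was then compared between the 2 tissues, as chalazal minus peripheral endosperm less chalazal minus general seed coat, a contrast chosen after these values had been seen. It was called negative for RCA (-4.09, SE 0.7, limma adjusted p = 0.000666), PORB (-2.6, SE 0.74, 0.0191) and PSAN (-2.13, SE 0.69, 0.0353), which is 3 of 6 beside 11.5% of all probe sets. PSAE-1 (-0.18, 95% interval -1.41 to 1.05), LHCB4.1 (-0.68, -1.41 to 0.05) and PRK (0.03, -1.46 to 1.52) were not called. PSAE-1 and PRK were below the array median on chalazal seed coat replicate 1, which limits their decrease in the seed coat. PSAN and PORB were below the array median on all 4 chalazal arrays, so for them both decreases end at a dim signal, and the contrast is set largely by peripheral endosperm minus general seed coat (2.28 for PSAN, 2.22 for PORB). It does not show a larger decrease in the endosperm for these 2 genes. RCA was at percentile 70.8 on both chalazal seed coat arrays. The RCA call held in all 24 alternatives, not all of which could lose it, while that of PSAN was lost in 12 of 24 and that of PORB in 6 of 24. Only RCA was called without chalazal endosperm replicate 2, chalazal seed coat replicate 2 or general seed coat replicate 2, where PORB and PSAN were lost.

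**Figure D3:**
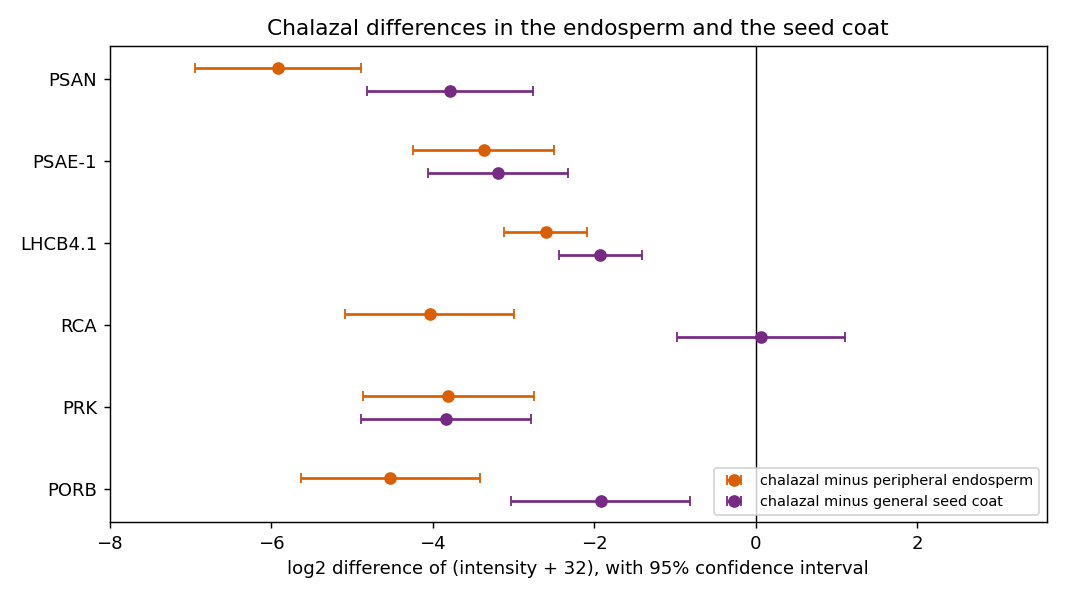
Log2 difference of (intensity + 32), with 95% confidence interval from limma, between chalazal and peripheral endosperm (orange) and between chalazal and general seed coat (purple) for each gene. The intervals of PSAE-1, LHCB4.1 and PRK overlap between the tissues, while RCA is at -4.03 in the endosperm and 0.06 in the seed coat.

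The 2 chalazal compartments, which lie next to each other, differed gene by gene. The chalazal endosperm was higher than the chalazal seed coat for 3 of 6 genes, PSAE-1 (2.58), LHCB4.1 (1.88, SE 0.24, limma adjusted p = 1.75e-05) and PRK (1.83), beside 15.1% of all probe sets. It was lower for 1 of 6, RCA (-2.49), beside 18.4%. PSAN (0.15) and PORB (-0.39, 95% interval -1.49 to 0.72) were not called, and both were below the array median on all 4 chalazal arrays. Compared with the general seed coat, the chalazal endosperm was lower for 4 of 6 genes, beside 19.8%: PSAN (-3.64), RCA (-2.43), PORB (-2.31) and PRK (-2). The PRK call was lost without chalazal endosperm replicate 2 (adjusted p = 0.0879) or general seed coat replicate 1 (0.0864).

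Whole seeds lay between the high and low compartments for 5 of 6 genes, and for LHCB4.1 the whole seed mean (12274) was just above every compartment mean. PSAN had 6527 and 5300 units in whole seeds, PSAE-1 7801 and 9375, LHCB4.1 12501 and 12046, RCA 1839 and 1473, PRK 13084 and 9680, and PORB 3915 and 3325. On the log scale, whole seeds exceeded the mean of the 6 compartments for 5 of 6 genes, by 1.49 (PRK) to 2.64 (PORB), beside 6.37% of all probe sets. RCA missed the threshold (1.15, adjusted p = 0.0687). A mean of logs over compartments this unlike lies well below their plain mean, so an excess of the mixture is largely built into this comparison. As plain means the differences were smaller: whole seeds and the mean of the 6 compartments were at 5914 and 4098 for PSAN, 8588 and 5770 for PSAE-1, 12274 and 6322 for LHCB4.1, 1656 and 1318 for RCA, 11382 and 9170 for PRK, and 3620 and 1818 for PORB. Without either whole seed array the count was 3 of 6. After centring arrays on their medians, the share of all calls that were higher in whole seeds was 44.9%, against 85.8% as deposited, and centring moved the median difference over all probe sets by 0.36.

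Few other nuclear genes of the pathway could be read: of 103 listed, 14 had a probe set annotated with that gene alone, and all 14 were tested. In the chalazal against the peripheral endosperm 11 of 14 were lower (17% of all probe sets), none was higher, and the median was -2.45. For photosystem II, PSBW, a small subunit, had 1394 ± 485 units in the chalazal endosperm and 11414 ± 1466 in the peripheral endosperm (log2 difference -3.04, limma adjusted p = 5.07e-07). PSBY, also a small subunit, differed by -2.04 (0.000196) and PSB27, which helps assemble the photosystem, by -2.6 (0.000128). The LHCB4 relatives of LHCB4.1 were lower as well: LHCB4.2 had 215 ± 5.13 units in the chalazal endosperm and 3092 ± 869 in the peripheral endosperm (-3.63, 3.45e-06), and LHCB4.3 differed by -3.35 (1.52e-06).

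ATPC1, the gamma subunit of the chloroplast ATP synthase, differed by -2.91 (limma adjusted p = 7.06e-06). SBPASE, sedoheptulose bisphosphatase of the Calvin cycle, had 353 ± 107 units in the chalazal endosperm and 4167 ± 55.5 in the peripheral endosperm (SD, n = 2 each; -3.48, 1.73e-07). Of the 7 chlorophyll synthesis genes 4 were lower: CHLM, a methyltransferase (-3.08, 0.000203), CHLP, which makes the phytyl tail (-2.31, 1.76e-05), CHLI2, a magnesium chelatase subunit (-2.02, 0.0067), and HEME2, a uroporphyrinogen decarboxylase (-1.81, 0.0254). The 3 not called were GSA1 (-0.32), HEMB1 (-0.64) and HEME1 (-0.02), named here after their values were seen.

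In the other comparisons the 14 genes gave these counts. In the chalazal endosperm 14 of 14 were lower than in the embryo proper (20.4% of all probe sets; median -2.78), and 10 of 14 were lower than in the micropylar endosperm (19.3%; median -2.65). Against the general seed coat 3 of 14 were lower in the chalazal endosperm (19.8%), 1 was higher (17.2%), HEMB1 at 1.58, and 10 were not called (median -0.25). None of the 14 was called between the micropylar and peripheral endosperm, where 6.31% of all probe sets were called in either direction. Chalazal seed coat against general seed coat gave 7 of 14 lower (8.17%) and none higher (median -0.97), among them SBPASE (-1.13), LHCB4.2 (-2.97) and all 3 photosystem II genes. In the chalazal endosperm 6 of 14 were higher than in the chalazal seed coat (15.1%) and none was lower. The embryo proper exceeded the micropylar endosperm for 4 of 14 (8.18%), all of them chlorophyll synthesis genes: HEME2 (2.25, limma adjusted p = 0.0144), GSA1 (1.6, 0.00839), HEME1 (1.39, 0.0172) and HEMB1 (1.08, 0.0307). Against the peripheral endosperm 3 of 14 were higher in the embryo (12.9%), CHLI2 (2.13), HEME1 (1.94) and CHLP (1.01), and 1 was lower (9.38%), LHCB4.3, with 3012 ± 81.2 units in the embryo proper and 6617 ± 218 in the peripheral endosperm (-1.13, SE 0.35, adjusted p = 0.0279).

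Of the photosynthesis genes of the plastid genome 12 were listed, not all that the array reads, and all 12 were tested. In the chalazal endosperm against peripheral endosperm, micropylar endosperm or embryo proper, their median differences were smaller than those of the 14 other nuclear genes. Against the chalazal seed coat 5 of 12 were higher in the chalazal endosperm (15.1% of all probe sets) and 0 lower (18.4%). The median there was 0.7, beside 0.45 for the 14. In the chalazal against the peripheral endosperm 3 of 12 were lower and 9 were not called, which is near the 17% of all probe sets called lower, with differences of -2.04 to -0.21 and a median of -0.58. Against the embryo proper 3 of 12 were lower in the chalazal endosperm (median -0.29), near the 20.4% of all probe sets. The chalazal seed coat was lower than the general seed coat for 5 of 12, beside 8.17% of all probe sets. The median was -0.86, near the -0.97 of the 14. The peripheral endosperm exceeded the chalazal seed coat for 12 of 12, beside 15.2% (median 1.62).

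**Figure D4:**
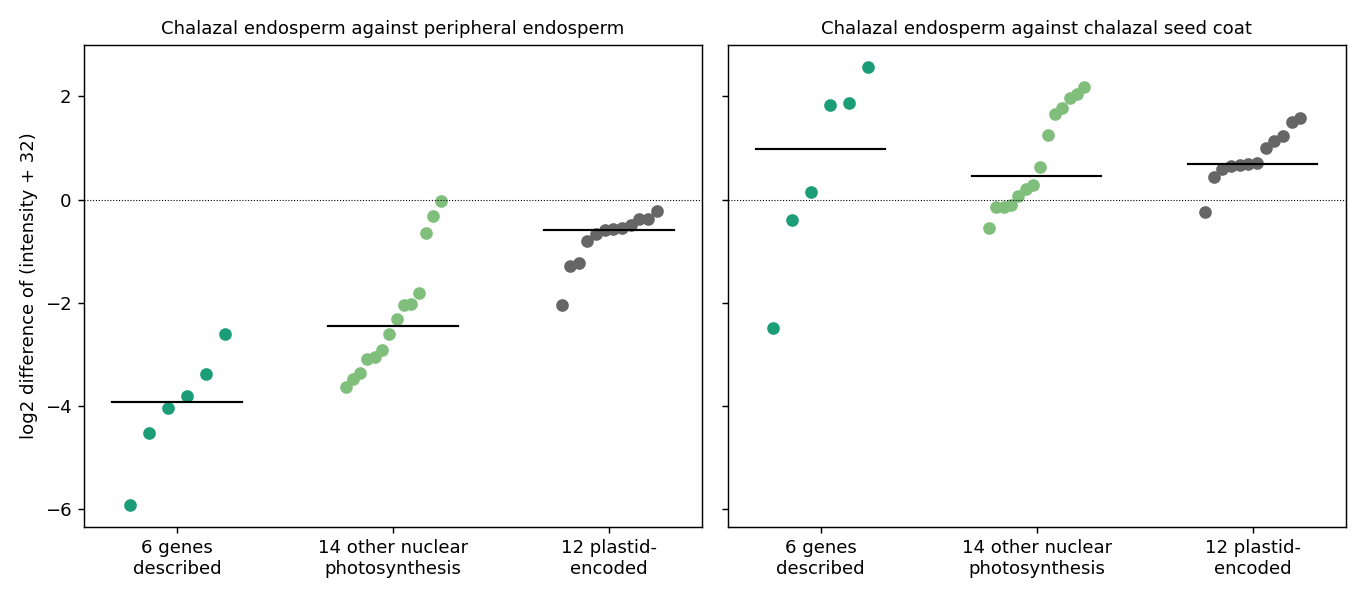
Log2 difference of (intensity + 32) for the 6 genes described, 14 other nuclear photosynthesis genes and 12 plastid-encoded ones, in chalazal against peripheral endosperm (left) and chalazal endosperm against chalazal seed coat (right); points are genes and lines medians. At the left the medians are -3.92, -2.45 and -0.58. At the right each group spreads on both sides of 0, with medians of 0.99, 0.45 and 0.7.

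Across the 14 arrays the 6 profiles on the log2 scale resembled one another, with Pearson r between 0.707 (PSAE-1 and RCA) and 0.98 (PSAE-1 and LHCB4.1) over the 15 pairs and a median of 0.917. These are descriptions over arrays that share group differences. RCA was the least like the mean profile of the 6 (r = 0.8717) and PSAN the most (0.9898). Among 8169 other single-gene probe sets, the 10 most like the mean profile were AT2G43030 (r = 0.9874), AT3G47070 (0.9852), CYP71B5 (0.9847), AT1G65090 (0.9821), AOP3 (0.9805), SBPASE (0.98), AT5G20950 (0.9782), AT1G21500 (0.9773), AT1G62290 (0.9772) and AT1G32190 (0.9764). AT2G43030 averaged 475 units in the chalazal endosperm, 10252 in the embryo proper, 4623 in the micropylar endosperm, 4312 in the peripheral endosperm, 406 in the chalazal seed coat and 1554 in the general seed coat.

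The gene most like each single member differed from member to member. It was AT1G65090 for PSAN (r = 0.9867), LHCB4.2 for PSAE-1 (0.9739) and the plastid gene psbH for LHCB4.1 (0.9878). For RCA it was AT3G51720 (0.9519), for PRK AT4G30660 (0.9811) and for PORB AT2G43030 (0.9824). The gene psbH was not among the 12 plastid-encoded genes counted above.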

How the data were processed

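Per the labels' protocols, sections were laser-dissected and the RNA amplified and labelled for 1-colour ATH1 arrays. The authors deposited linear signal intensity, already scaled; GCOS is the software in the submitters' processing notes, with no version. Detection calls and probe-level data were not used here. Of 22810 probe sets 64 controls were left out, and 14765 (64.91% of 22746) were tested, being above the array median in both replicates of at least 1 group. Intensities were used as deposited, as log2(intensity + 32), in 1 fit of 7 group means with limma 3.58.1 (lmFit, eBayes with trend; R 4.3.3), with 15 comparisons between compartments and whole seeds against the mean of the 6. Benjamini-Hochberg adjustment ran over all probe sets tested, and the fit was tested on simulated data. With 2 arrays per group the number of arrays limits the precision.

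Samples were grouped by title, source and description. The cell type field of the micropylar endosperm samples reads embryo proper, and its replicates are numbered 1 and 3. Same-numbered arrays did not deviate together, so no pairing was used. Probe sets were named through the platform annotation (13513 with a single gene), 13436 of which matched RefSeq's gene table, used for names only. The members and lists were chosen with earlier results of these data known, and the contrast between the tissues after its values were seen. Named were the members; the other nuclear pathway genes (of a list with over 5 such genes, the 4 with the largest chalazal minus peripheral difference); and the 10 genes most like the members' mean profile, with 1 per member. Alternatives changed the added constant, scaling, filter, trend, arrays fitted, replicate block and minimum difference, and left out each array. Not all of them could lose a call, since dropping the minimum difference cannot. Leaving out an array of a group not compared changes only the estimate of the spread.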

Additional observations from a re-analysis of the deposited data

Results flagged for a closer look

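For 3 genes limma called the difference between the chalazal decrease in the endosperm and that in the seed coat, a contrast added after the values were seen. PSAN differed by -2.13 log2 units (SE 0.69, adjusted p = 0.0353), being -5.91 in the chalazal against the peripheral endosperm and -3.79 in the chalazal against the general seed coat. RCA differed by -4.09 (SE 0.7, adjusted p = 0.000666), with -4.03 in the endosperm and 0.06 in the seed coat. PORB differed by -2.6 (SE 0.74, adjusted p = 0.0191), with -4.53 in the endosperm and -1.92 in the seed coat. RCA was below the array median on both chalazal endosperm arrays, and PSAN and PORB on all 4 chalazal arrays, so for PSAN and PORB the difference is set largely by the levels in the peripheral endosperm and general seed coat and does not show a larger decrease. The RCA call held in all 24 alternatives, not all of which could lose it. The PSAN call was lost in 12 of 24, among them log2(intensity + 1) (adjusted p = 0.163), quantile normalization (0.0597) and no trend (0.0745), and its value was -1.17 without chalazal endosperm replicate 2. The PORB call was lost in 6 of 24 (0.0625 with log2(intensity + 1)). Groups of 2 arrays are too small for a check of single outlying samples.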

How the results depend on the processing

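There were 78 called pairs of gene and comparison, under 24 alternatives each. Of 1872 values 1797 kept direction and call, 75 lost the call and 0 reversed, and 60 of the 78 pairs never lost it. These counts overstate how well the calls hold. Dropping the minimum difference cannot lose a call, and leaving out an array of a group not compared leaves the difference unchanged. The 6 of 6 counts for chalazal endosperm against peripheral endosperm, micropylar endosperm and embryo proper, and for embryo proper against chalazal seed coat, held in all 24. Embryo proper against micropylar endosperm had 1 gene called, 0 with log2(intensity + 1), 2 with only the arrays compared and 0 to 1 leaving out single arrays. Embryo proper against peripheral endosperm had 2, with 0 under log2(intensity + 1), 1 with median-centred arrays, no filter or no trend, 3 with log2(intensity + 100) and with only the arrays compared, and 0 to 3 leaving out single arrays. Leaving out single arrays gave 3 to 6 for peripheral endosperm against general seed coat and 3 to 6 for whole seeds. The contrast between the tissues had 3, with 1 under log2(intensity + 1), 1 with only the arrays compared and 1 to 3 leaving out single arrays. Where an arm had 1 array, it was assumed to vary like the other groups.

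Reversals occurred only among pairs not called, and none was called when reversed. Centring gave -0.18 for PSAE-1 and -0.19 for LHCB4.1 in embryo proper against peripheral endosperm, -0.06 for PORB in micropylar against peripheral endosperm, 0.19 for LHCB4.1 in chalazal endosperm against general seed coat and -0.19 for PRK between the tissues. Log2(intensity + 1) gave -0.09 for PSAN in chalazal endosperm against chalazal seed coat and 0.01 for PSAE-1 between the tissues, where quantile normalization gave 0.01 too, and log2(intensity + 100) gave -0.21 for PRK. Leaving out single arrays gave -0.01 to 0.12 for PSAE-1 and 0 to 0.08 for LHCB4.1 (embryo proper against peripheral endosperm), -0.49 to 0.61 for PORB (micropylar against peripheral endosperm), -0.47 to 0.6 for RCA (chalazal against general seed coat), -0.8 to 1.1 for PSAN and -1.23 to 0.46 for PORB (chalazal endosperm against chalazal seed coat), -1.49 to 0.27 for PSAE-1 and -0.18 to 0.09 for LHCB4.1 (chalazal endosperm against general seed coat), and -1.06 to 0.7 for PSAE-1 and -0.88 to 0.95 for PRK (between the tissues). The cause was not tested.

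The deviations of replicate 1 from its group mean correlated between groups at -0.0616 to 0.0446 over 21 pairs of groups (0 over 0.1). The numbers were therefore not used as a pairing. In the micropylar endosperm the other array is replicate 3. With the replicate block PORB was -0.08 in micropylar against peripheral endosperm. Over all probe sets, calls numbered 931 in micropylar against peripheral endosperm (55 to 2182 under the alternatives), 1096 for whole seeds (288 to 1369) and 2550 in embryo proper against micropylar endosperm (1201 to 3575). Centring moved the median difference by -0.4 (peripheral endosperm against general seed coat) to 0.36 (whole seeds), and the share of calls that were higher to 43.4% from 57.9% (embryo proper against peripheral endosperm), 53.8% from 64.2% (micropylar against peripheral endosperm), 65.1% from 45.5% (peripheral endosperm against general seed coat), 58.7% from 43% (peripheral endosperm against chalazal seed coat), 64.4% from 49.8% (micropylar endosperm against general seed coat), 58.7% from 47.2% (micropylar endosperm against chalazal seed coat), 57.4% from 46.6% (chalazal endosperm against general seed coat) and 35.6% from 46.8% (between the tissues).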
